A study of Mus musculus with 4 samples.

Results

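The 4 genes described here are the GATA zinc finger factors Gata1, Gata2 and Gata3 and Zfpm1, which encodes the GATA cofactor FOG1. They were found by symbol in the gene lists of both experiments and are 4 of the 31053 genes counted. Droplet libraries (10x Chromium v3) were made from mouse bone marrow progenitors in early T-cell development on OP9-Dll1 stroma, which presents the Notch ligand Dll1, with IL-7 and Flt3-ligand at 10 ng/ml each. In each of 2 experiments, cultures were marked with 8 hashtags (antibody-borne DNA barcodes) and pooled into 1 mRNA library and 1 hashtag library.

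The series design names these arms. Cells from B6.Bcl2 transgenic mice aged 8 to 10 weeks received MSCV-Runx1-mCherry or the empty mCherry vector on day 2 and were harvested on day 4 or 6. Cells from B6.Cas9;Bcl2 mice received E42-gRunx1-hNGFR with E42-gRunx3-mTurquoise (3 guide pairs per gene), or the same backbones with guides against luciferase, and were harvested on day 5 or 8. The Bcl2 transgene, a survival gene, was shared by every arm. Live CD45+ cells without lineage markers were sorted by their vector reporters, and equal numbers were pooled. Culture lasted 4 to 5 days for the first experiment and 4 to 8 days for the second. The labels tie no hashtag to an arm, so the hashtags are samples of unknown condition and no arm was compared with another. A hashtag number is only its column order, and the same number in both experiments is not known to be the same condition.

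After filtering, 8797 cells of experiment 1 (691 to 1291 per hashtag, median 24753 unique molecular identifiers, UMIs, per cell) and 8335 cells of experiment 2 (855 to 1312, median 26338) had a hashtag call. Each hashtag summed to between 14502385 and 42684236 UMIs. The label names Kit-high T progenitors: a Kit UMI was found in 71.8% and 51.9% of tagged cells, and the clusters held granulocyte, dendritic, B-lineage and stromal cells beside T progenitors. The libraries shared 39 cell barcodes. Levels are CPM, the UMIs of a gene scaled to 1000000 UMIs in all. All intervals are 95% intervals for counting error only. There is no replicate of a known condition, so no p-value is given. In a sum over a hashtag, fewer cells of a type and less RNA per cell cannot be told apart.

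GATA factors bind the sequence core GATA through paired zinc fingers. Gata2 acts in stem and early progenitor cells and in mast cells and basophils. Gata1 acts in erythroid cells, megakaryocytes, mast cells and eosinophils. Gata3 is required for T-cell development and for type 2 innate lymphoid cells. FOG1, the Zfpm1 product, does not bind DNA in this role but attaches to the amino-terminal finger of GATA factors, and Gata1 works with it in erythroid cells and megakaryocytes.

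By RefSeq annotation of GRCm38.p6, Gata1 (ENSMUSG00000031162) spans X:7959260-7976663, Gata2 (ENSMUSG00000015053) 6:88193891-88207032, Gata3 (ENSMUSG00000015619) 2:9857078-9887953 and Zfpm1 (ENSMUSG00000049577) 8:122281856-122337862. All are protein-coding. RefSeq start-site windows (250 bases before to 50 after a start) were found for all 4 genes, with 2 for Gata2. The 250 bases before the start are shown for the 3 GATA genes. Those of Gata1 and Gata3 lie inside the gene spans given above, so they belong to starts within the gene and not at its outer end. For Gata2 the window at the outer end of the span is shown. Capitals mark the core GATA on either strand.

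Gata1, chrX:7967911-7968160, minus strand: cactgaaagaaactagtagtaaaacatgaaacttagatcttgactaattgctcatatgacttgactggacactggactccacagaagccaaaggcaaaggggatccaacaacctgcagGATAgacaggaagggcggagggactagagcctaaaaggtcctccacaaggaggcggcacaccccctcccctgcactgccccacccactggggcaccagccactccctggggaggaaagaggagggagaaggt
Gata2, chr6:88193641-88193890, plus strand: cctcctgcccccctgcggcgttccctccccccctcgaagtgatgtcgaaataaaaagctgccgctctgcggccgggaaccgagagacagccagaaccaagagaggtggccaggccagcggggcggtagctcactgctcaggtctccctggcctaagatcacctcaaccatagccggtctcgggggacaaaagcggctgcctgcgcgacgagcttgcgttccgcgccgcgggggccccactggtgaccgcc
Gata3, chr2:9878601-9878850, minus strand: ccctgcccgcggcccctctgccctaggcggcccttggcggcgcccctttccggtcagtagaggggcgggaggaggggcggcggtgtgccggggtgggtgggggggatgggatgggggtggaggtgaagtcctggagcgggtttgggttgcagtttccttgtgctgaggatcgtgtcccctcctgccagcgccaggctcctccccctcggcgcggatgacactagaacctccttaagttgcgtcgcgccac

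None of the 5 windows held the longer GATA factor motif, spelled AGATAA in its first form and, in its second form, with the opening letter changed, as TGATAA. On either strand, 18.6% of 32851 promoter windows held at least 1 of these forms. None held TGTGGT, the Runx motif, found in 16.8% of windows. The core GATA, which lies within both forms, occurred once in the Gata1 window and once in the Gata3 window, there after the start; 57.9% of all windows held it. These are letter matches in short windows and say nothing of binding.

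Gata1 and Gata2 were rare in the pools and concentrated in a few cells. A Gata1 UMI was found in 108 of 8797 cells of experiment 1 (1.23%, interval 1.01 to 1.48%) and in 145 of 8335 cells of experiment 2 (1.74%, 1.47 to 2.04%). A Gata2 UMI was found in 3.77% (3.39 to 4.19%) and 3.70% (3.30 to 4.12%). Most positive cells held a single UMI, yet the highest cells held 26 Gata2 UMIs in experiment 1 and 17 in experiment 2, and 9 and 8 Gata1 UMIs. Gata3 and Zfpm1 were widespread: a Gata3 UMI was found in 65.4% and 52.2% of cells, and a Zfpm1 UMI in 51.3% and 37.3%.

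Cells were clustered without the 4 genes. In experiment 1, cluster 11 (111 cells, 1.26% of tagged cells) held 64.6% of all Gata1 UMIs and 64.3% of all Gata2 UMIs. Its marker genes named it mast or basophil-like. Gata2 stood at 193 CPM there (177 to 211) against 1.30 in all other tagged cells, and Gata1 at 40.3 CPM (33.0 to 48.7) against 0.265. Zfpm1 was 128 CPM against 37.9. Gata3 went the other way, with 7.60 CPM (4.64 to 11.7) against 80.5. In experiment 2 the mast or basophil-like cluster 19 (42 cells) had 412 CPM of Gata2 (365 to 464), 37.9 CPM of Gata1 (24.5 to 55.9) and no Gata3 UMI among 660165, for which the interval reaches 5.59 CPM. Cluster 17 of the same experiment (77 cells, unnamed, led by the mast cell protease gene Mcpt1) had 129 CPM of Gata2 and 45.1 CPM of Gata1. Zfpm1 separated these clusters, with 137 CPM in cluster 17 and 15.1 CPM (7.26 to 27.9) in cluster 19.

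Genes with at least 10 UMIs in both groups were compared between the mast or basophil-like cells and all other tagged cells. The former were at least 2-fold higher in 3 of the 4 genes in experiment 1. In experiment 2 they were so in 2 of the 3 genes that could be tested, as Gata3 had 0 UMIs in them. In experiment 1 the third gene was Zfpm1, and within cluster 11 the cells rich in basophil proteases, described below, had 47.2 CPM of it against 37.9 CPM in the other tagged cells. Of all genes tested, 7.9% of 9384 and 11.8% of 5663 passed that fold. The experiment 2 values depend on which cells carry the name: with cluster 17 included, or with 3000 variable genes, Gata2 was 195 CPM, and Zfpm1 went from 15.1 CPM, against 23.3 CPM in the other cells, to 108 CPM.

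**Figure D1:**
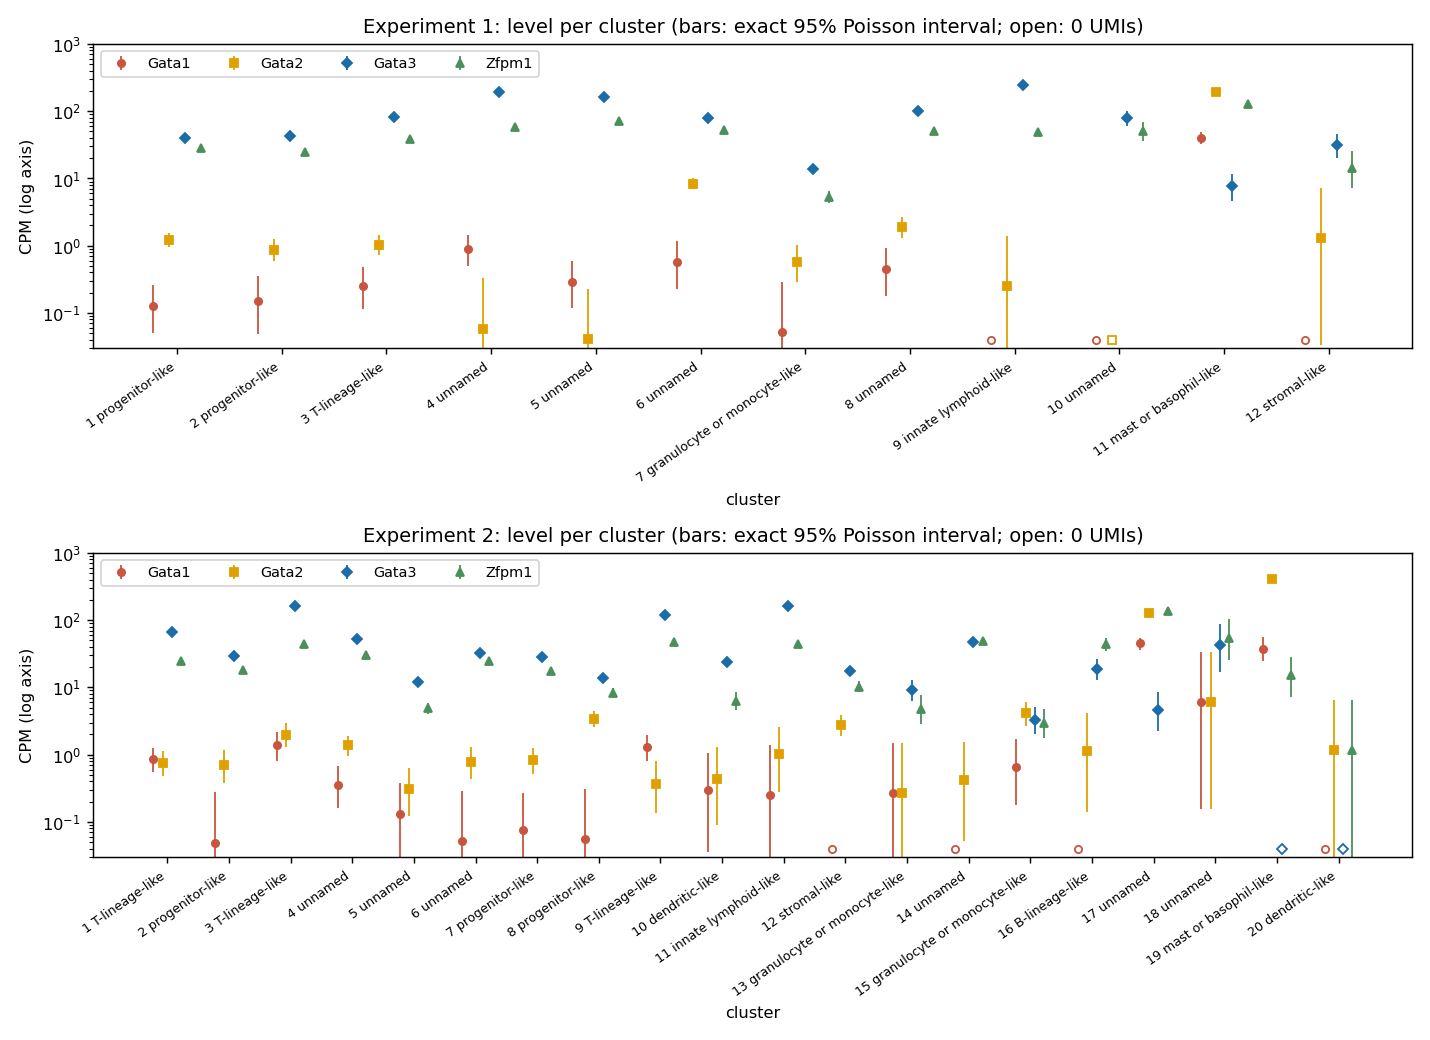
Level of each gene per cluster in CPM on a log axis, with experiment 1 above and experiment 2 below; bars are exact 95% Poisson intervals, and open symbols at the foot are clusters with 0 UMIs. Gata1 and Gata2 stand at 40.3 and 193 CPM in cluster 11 of experiment 1, and at 45.1 and 129 CPM in cluster 17 and 37.9 and 412 CPM in cluster 19 of experiment 2, and Gata3 is low in all of them.

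The mast-side clusters (11 in experiment 1, 17 and 19 in experiment 2) held cells of more than one kind, and Zfpm1 set them apart. They were split, after the clusters had been seen, by the summed UMIs of Mcpt8 and Prss34, basophil proteases. With at least 10 such UMIs there were 35 cells in experiment 1 and 52 in experiment 2, with Zfpm1 at 47.2 CPM (34.4 to 63.2) and 16.6 CPM (9.29 to 27.4). With fewer there were 76 and 67 cells, with Zfpm1 at 175 CPM (155 to 196) and 151 CPM (135 to 170). The cells with few protease UMIs thus had 3.70 times (2.69 to 5.18) and 9.12 times (5.44 to 16.5) the Zfpm1 level of the others.

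Gata2 differed in the opposite direction. It was 256 CPM in protease-rich cells and 158 CPM in the rest in experiment 1, a ratio of few to rich of 0.617 (0.516 to 0.737), while experiment 2 gave 365 CPM and 115 CPM and a ratio of 0.314 (0.264 to 0.374). Gata1 was 24.1 CPM in protease-rich cells and 49.4 CPM in the rest in experiment 1, a ratio of 2.05 (1.28 to 3.41). In experiment 2 it was 35.4 and 47.2 CPM, with an interval of the ratio that spans 1 (0.881 to 2.06).

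Marker genes other than the 2 used for the split also differed across it. The other 8 mast or basophil markers summed to 2703 and 3461 CPM in protease-rich cells and to 157 and 99.1 CPM in the rest, against 165 and 124 CPM in the cells outside these clusters. The outside sum was mostly Cpa3, a mast cell carboxypeptidase gene, at 151 and 110 CPM, which stood at 25.6 and 25.7 CPM in cells with few protease UMIs. Ms4a2, the IgE receptor beta chain gene, went the other way in those cells, with 37.5 and 24.1 CPM against 0.151 and 0.109 CPM outside, and so did Hdc, the histamine-forming enzyme gene, with 50.0 and 12.6 CPM against 2.50 and 5.48 CPM. The mast cell protease gene Mcpt1 stood at 13.1 and 133 CPM in those cells against 0.119 and 0.252 CPM outside. It was far higher in the cells rich in Mcpt8 and Prss34, at 2341 and 4730 CPM. Mcpt4, another mast cell protease gene, had 614 and 1150 CPM in the rich cells and 1.79 and 2.62 CPM in the rest. Cells with few protease UMIs thus held some mast cell genes beside those of other lineages, and they are given no name here.

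The 8 megakaryocyte markers summed to 503 and 243 CPM in the cells with few protease UMIs, against 52.9 and 31.6 CPM outside. Pf4, a platelet chemokine gene, stood at 182 and 152 CPM against 0.421 and 0.583 CPM. Erythroid genes were mixed. The 10 erythroid markers summed to 896 and 640 CPM, below the 1682 and 1305 CPM outside, while single genes stood above. Klf1, an erythroid factor gene, had 26.8 and 54.0 CPM against 0.311 and 0.287 CPM, and Epor, the erythropoietin receptor gene, had 20.8 and 27.3 CPM against 0.0549 and 0.174 CPM. Car1, a carbonic anhydrase gene of early erythroid cells, had 71.5 and 128 CPM against 0.00458 and 0.0131 CPM. The protease-rich cells of experiment 1 also had 3539 CPM of the eosinophil markers, with Prg2 at 2619 CPM, against 12.2 CPM of those markers in experiment 2.

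**Figure D2:**
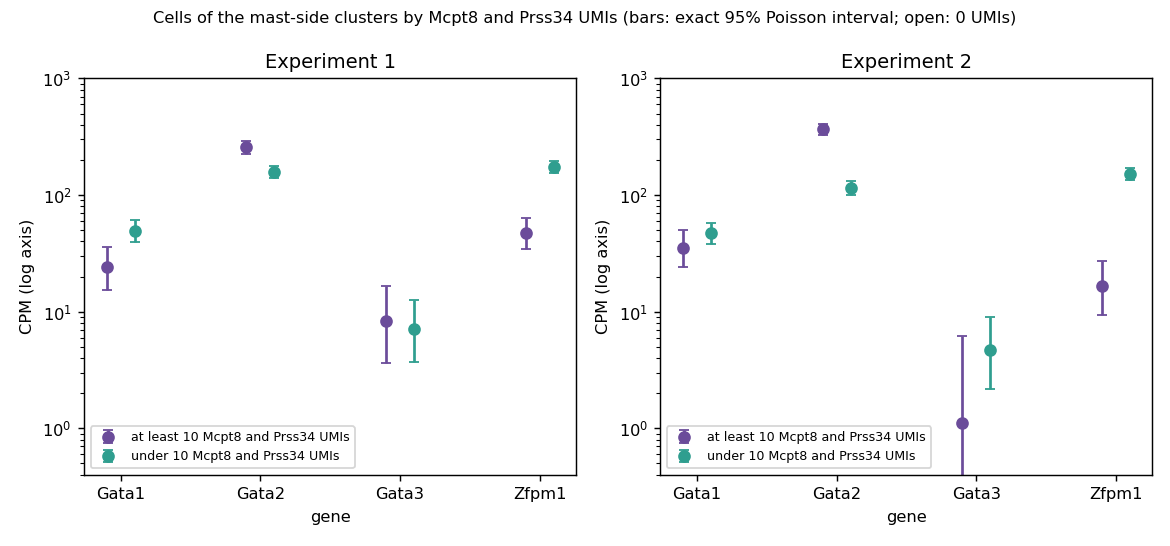
Level of the 4 genes in cells of the mast-side clusters, split at 10 summed UMIs of Mcpt8 and Prss34, in CPM on a log axis; bars are exact 95% Poisson intervals. In both experiments Zfpm1 is higher in cells with few protease UMIs (175 and 151 CPM against 47.2 and 16.6 CPM) and Gata2 is lower.

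Outside the mast-side clusters, Gata1 was found at a low level in cells with a UMI of Bcl11b, a transcription factor gene that marks T-lineage commitment. It had 27 UMIs (0.865 CPM, 0.570 to 1.26) in the Bcl11b+ cells of experiment 1 and 6 UMIs (0.106 CPM, 0.0389 to 0.231) in Kit+ cells with neither Il2ra nor Bcl11b. The ratio was 8.16 (3.30 to 24.2). In experiment 2 it had 51 UMIs (1.10 CPM) and 10 UMIs (0.166 CPM), a ratio of 6.58 (3.30 to 14.5). This direction rests on leaving the mast-side clusters out: over all tagged cells the ratios were 0.760 (0.483 to 1.17) and 0.994 (0.688 to 1.43). Few hashtags held most of these molecules. Of 31 Gata1 UMIs in all Bcl11b+ tagged cells of experiment 1, hashtags 3 and 4 held 13 and 9. In experiment 2 hashtag 4 held 31 of 55. The part of the hashtags in the ratios was not tested. Gata2 was lower in Bcl11b+ cells outside those clusters, with 0.801 against 1.36 CPM (ratio 0.589, 0.359 to 0.935) and 0.838 against 1.65 CPM (0.508, 0.342 to 0.743).

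Gata3 was highest in the innate lymphoid-like clusters and in clusters led by Pgam2 and Gsn, some named T-lineage-like and some unnamed. The innate lymphoid-like clusters stood at 245 CPM (230 to 261) in experiment 1 and 164 CPM (152 to 177) in experiment 2, with a UMI in 87.8% and 76.3% of cells at a median of 16802 and 16857 UMIs per cell. Among the Pgam2-led clusters, clusters 4 and 5 of experiment 1 (both unnamed) stood at 194 and 160 CPM, and the T-lineage-like clusters 3 and 9 of experiment 2 at 161 and 120 CPM. Cluster levels and the hashtag sums described below come from the same cells, so they are not separate findings. The other T-lineage-like clusters were lower, with 81.0 CPM in cluster 3 of experiment 1 and 67.3 CPM in cluster 1 of experiment 2, against 79.6 and 48.2 CPM over all tagged cells. Unnamed cluster 8 of experiment 1, led by genes of dividing cells and Tcrg-C2, had 101 CPM. Progenitor-like cells had 40.8 and 24.7 CPM. Granulocyte or monocyte-like cells had 13.7 CPM (29.9% of cells with a UMI, median 32811 UMIs per cell) in experiment 1, where the cluster also held dendritic markers. At a finer clustering, a granulocyte or monocyte-like cluster led by S100a8 and S100a9, whose cells should lack the gene (87 cells, median 35946 UMIs) had 2.14 CPM with a UMI in 4 cells, and an unnamed cluster with monocyte and dendritic markers (441 cells) had 16.5 CPM and 35.1%. In experiment 2 the class had 5.51 CPM. There the 2 clusters of this class had a UMI in 6.32% and 6.88% of cells at medians of 19643 and 35717 UMIs per cell. In the Xcr1-led dendritic cluster of experiment 2, no Gata3 UMI was found in 40 cells, which allows a share of cells with a UMI of up to 7.5% (3 counts). Dendritic-like cells did not all lack the gene. The larger dendritic-like cluster of that experiment (389 cells) had 24.0 CPM. The class had 21.3 CPM, with a UMI in 20.0% of cells.

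The highest Gata3 level was found in a group of 30 cells that separated in experiment 1 at a finer clustering (resolution 1.0) and was singled out after its values were seen. Gata3 stood at 677 CPM there (583 to 782), with a UMI in 30 of 30 cells, against 78.9 CPM in the other tagged cells. The cytokine gene Il13 stood at 373 CPM, the costimulatory receptor gene Icos at 527 CPM and Rora, a nuclear receptor gene used by type 2 innate lymphoid cells, at 245 CPM. Bcl11b stood at 172 CPM against 17.6 CPM in the others, and Il2ra at 132 CPM against 288 CPM. Cd3g, a T-cell receptor subunit gene, had 5 UMIs in 3 of the cells (18.3 CPM against 80.4 CPM). Il1rl1, which encodes the IL-33 receptor, and Cd3e had 0 UMIs among 273246, for which the interval reaches 13.5 CPM, above their levels of 0.756 and 3.16 CPM in the other cells, so no difference was detectable at this depth. The cells came from all 8 hashtags, with 11 in hashtag 7. At the same resolution in experiment 2, no cluster reached such a level. The highest was a T-lineage-like cluster of 353 cells with 206 CPM of Gata3. The innate lymphoid-like cluster there (194 cells), with Il13 and Icos among its leading genes, had 175 CPM.

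Cells were also gated on UMIs of Kit, Il2ra and Bcl11b, which mark successive steps of the pathway, and Gata3 was higher at each step. In experiment 1 it was 49.9 CPM (48.1 to 51.8) in Kit+ cells with neither other gene, 88.7 CPM (86.7 to 90.7) in Kit+ Il2ra+ cells and 144 CPM (140 to 149) in Bcl11b+ cells. Experiment 2 showed the same order at lower levels, 33.1, 59.2 and 91.5 CPM. Kit- Il2ra+ cells stood at 77.5 and 51.0 CPM. Cells with a UMI of none of the 3 genes had 31.0 and 17.5 CPM. The ratio of Bcl11b+ to Kit-only cells was 2.89 (2.76 to 3.03) and 2.77 (2.62 to 2.92), and it lay above 1 in each of the 8 hashtags of both experiments (1.70 to 5.34 and 1.67 to 5.46). Over all tagged cells, Gata3 was the 1 gene of the 4 that reached 2-fold in this contrast, which 6.39% of 12051 and 6.21% of 12880 genes reached. With every cell thinned to 5000 UMIs before gating, the ratio was 2.37 in experiment 1 and, below 2-fold, 1.73 in experiment 2.

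Zfpm1 differed less between these gates, and its order was not the same in both experiments. Levels in Kit-only, Kit+ Il2ra+ and Bcl11b+ cells were 30.2, 46.8 and 48.2 CPM in experiment 1 and 20.1, 34.3 and 29.6 CPM in experiment 2. In experiment 1 the intervals of the last 2 gates overlap (45.4 to 48.3 and 45.8 to 50.7 CPM); in experiment 2 Zfpm1 was lower in Bcl11b+ than in Kit+ Il2ra+ cells (28.1 to 31.2 and 32.6 to 36.0 CPM). Within hashtags, the Zfpm1 ratio of Bcl11b+ to Kit-only cells lay above 1 in 7 of 8 in experiment 1 (range 0.928 to 1.72). In experiment 2 it lay above 1 in 5 of 8 (0.795 to 3.57). B-lineage-like cells of experiment 2 had Zfpm1 (43.6 CPM, 34.3 to 54.5) with little Gata3 (18.9 CPM, 13.0 to 26.6).

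**Figure D3:**
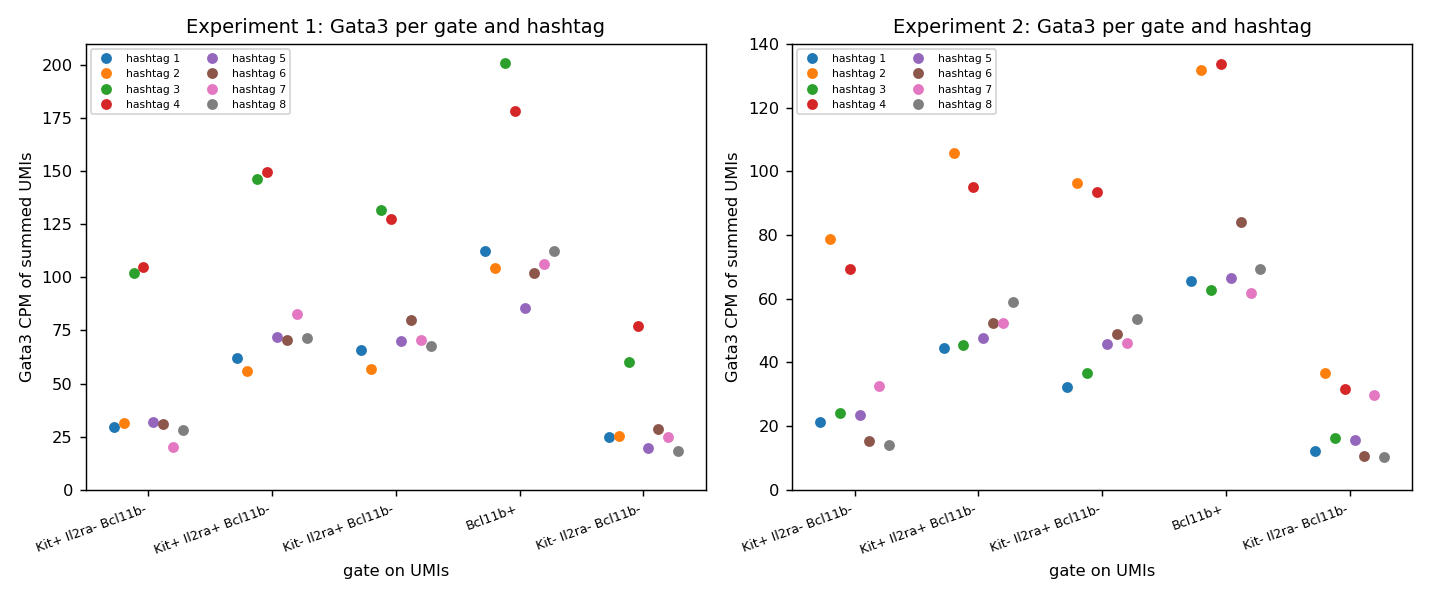
Gata3 level in CPM for each of 5 gates on UMIs of Kit, Il2ra and Bcl11b, with 1 point per hashtag, for experiment 1 on the left and experiment 2 on the right. In every gate the 2 highest points are hashtags 3 and 4 in experiment 1 and hashtags 2 and 4 in experiment 2.

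Across hashtags, Gata3 and Zfpm1 were highest in the same cultures. In experiment 1 Gata3 stood at 141 CPM in hashtag 3 and 142 CPM in hashtag 4, while the other 6 lay between 44.6 (hashtag 2) and 65.2 CPM, with a median over all 8 of 64.8 CPM. Zfpm1 was likewise highest in hashtags 3 and 4, at 56.8 and 57.1 CPM, with a lowest value of 27.0 (hashtag 2) and a median of 34.2 CPM. Hashtags 3 and 4 did not differ from each other beyond counting error in either gene. In experiment 2 Gata3 was highest in hashtag 4 (102 CPM) and hashtag 2 (85.1 CPM), with the other 6 between 24.8 and 53.1 CPM and a median of 37.8 CPM. Zfpm1 was 35.9 CPM in hashtag 2 and 35.8 CPM in hashtag 4, with a lowest of 13.0 and a median of 22.7 CPM. The pairs were picked as the 2 highest values, so their gap to the other 6 is no test. The next hashtag in Zfpm1 was hashtag 7 in both experiments, at 43.5 and 26.1 CPM.

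Between the highest and the lowest hashtag, Gata3 differed 3.18-fold (3.00 to 3.37) in experiment 1 and 4.10-fold (3.77 to 4.47) in experiment 2. The ratio of Zfpm1 was 2.12 (1.96 to 2.29) and 2.76 (2.44 to 3.12). The make-up of the cultures differed too: the 10 T-lineage markers summed to between 406 and 1103 CPM over the hashtags of experiment 1 and between 242 and 1888 CPM in experiment 2. The part of that make-up in the ratios was not tested. The same pairs of hashtags were highest in Gata3 within each gate, as plotted by gate. Among Kit-only cells, hashtags 3 and 4 of experiment 1 had 102 and 105 CPM against 19.9 to 31.9 CPM in the others, and hashtags 2 and 4 of experiment 2 had 78.8 and 69.4 CPM against 14.2 to 32.6 CPM.

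**Figure D4:**
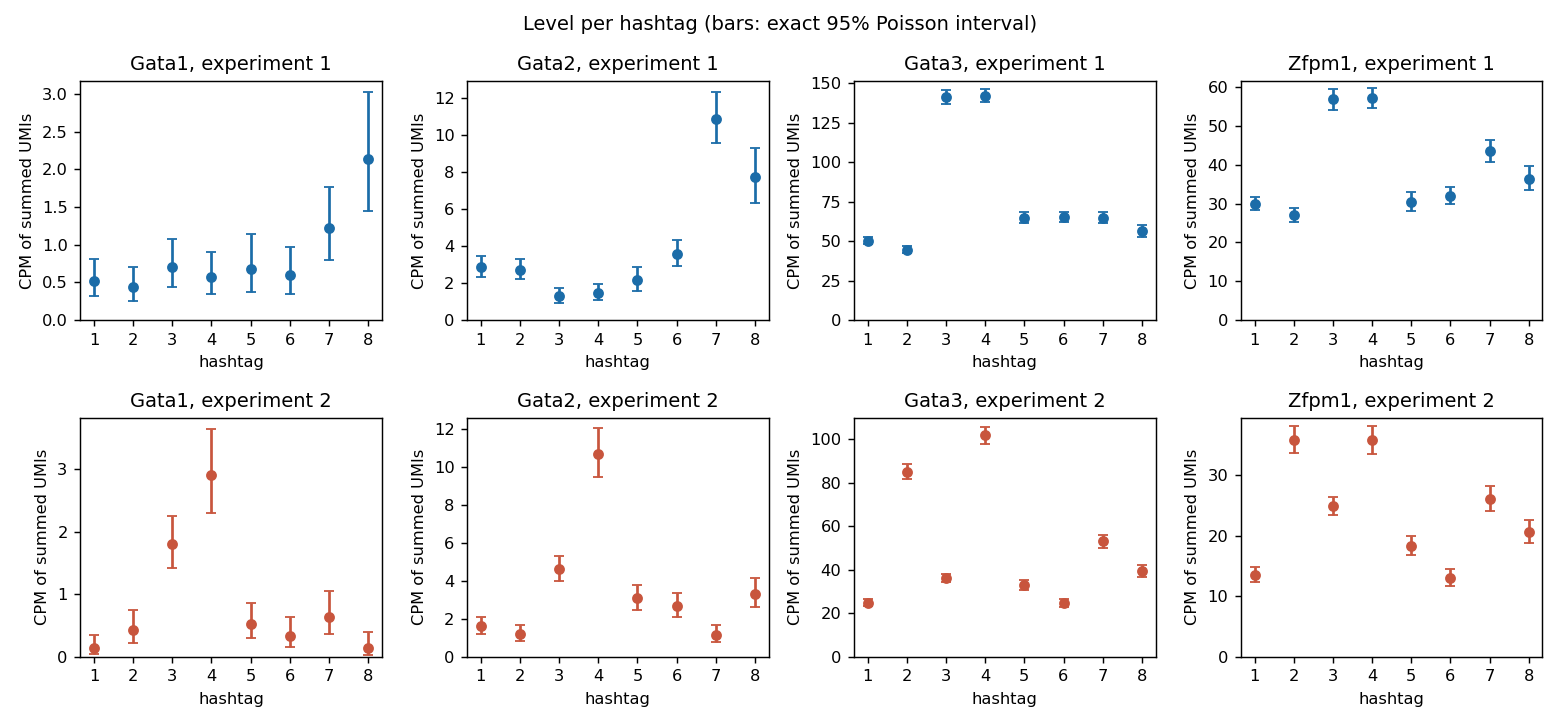
Level of the 4 genes in each hashtag in CPM, with experiment 1 in the upper row and experiment 2 in the lower; bars are exact 95% Poisson intervals. Gata3 and Zfpm1 peak in hashtags 3 and 4 of experiment 1 and in hashtags 2 and 4 of experiment 2, while Gata1 and Gata2 peak in hashtags 7 and 8 and in hashtags 3 and 4.

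Gata1 and Gata2 peaked in other cultures of experiment 1. Gata2 was highest in hashtag 7 (10.9 CPM, 9.57 to 12.4) and hashtag 8 (7.72 CPM, 6.36 to 9.29), with the other 6 between 1.28 and 3.58 CPM and a median of 2.80 CPM. Gata1 was highest in the same hashtags in the other order, 2.14 CPM in hashtag 8 and 1.22 CPM in hashtag 7, with the other 6 between 0.437 and 0.707 CPM. Hashtag 7 exceeded the next hashtag in Gata1 by 1.72 times (0.937 to 3.20), within counting error. In experiment 2 hashtags 4 and 3 were highest in both genes: Gata2 stood at 10.7 and 4.64 CPM and Gata1 at 2.91 and 1.80 CPM. The other 6 lay between 1.15 and 3.32 CPM in Gata2 and between 0.135 and 0.637 CPM in Gata1.

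The highest-to-lowest ratio of Gata2 was 8.52 (6.03 to 12.3) in experiment 1. It was 9.33 (6.28 to 14.4) in experiment 2, where it was 4.04 without hashtag 4. That of Gata1 was 4.90 (2.60 to 9.58) in experiment 1, and 2.79 without hashtag 8. In experiment 2 it was 21.6 (7.11 to 107), with 3 UMIs in the lowest hashtag, and 13.4 without hashtag 4. A ratio of at least 2 was thus reached by all 4 genes in experiment 1 and by the 3 genes with at least 10 UMIs in the lowest hashtag in experiment 2; it was also reached by 20.5% of 11249 genes and by 28.1% of 11605. For Zfpm1 in experiment 1 the call ended without hashtag 2 (ratio 1.91), and its interval began at 1.96.

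These hashtags also held the most mast-side cells: 3.17% and 2.46% of the cells of hashtags 7 and 8 of experiment 1, against 0.564 to 1.16% in the other 6, and 4.04% and 3.76% of hashtags 3 and 4 of experiment 2, against 0 to 0.709%. With mast-side clusters left out, Gata2 in experiment 1 was still highest in hashtags 7 and 8, at 4.76 CPM (3.88 to 5.78) and 3.34 CPM (2.45 to 4.44). It was lowest in hashtags 3 and 4, the cultures highest in Gata3, at 0.203 CPM (6 UMIs) and 0.128 CPM (4 UMIs). The ratio of hashtag 7 to hashtag 4 was 37.2 (14.1 to 139). The Gata1 order of experiment 1 did not stay: outside cluster 11, hashtag 8 had 0.213 CPM (3 UMIs) and the highest was hashtag 3 with 0.576 CPM (17 UMIs). Cluster 6, of which 71.8% was hashtag 7, had 8.40 CPM of Gata2, and hashtag 7 outside it had 2.16 CPM (1.42 to 3.14).

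In experiment 2 the order changed when mast-side clusters were left out. Gata2 was then highest in hashtag 8 (2.97 CPM, 2.29 to 3.78), followed by hashtag 4 (1.78 CPM, 1.30 to 2.38), and the ratio to the lowest, hashtag 5, was 5.27 (3.02 to 9.75). Hashtag 3 fell from second place to 0.680 CPM. Gata1 outside these clusters was highest in hashtag 4 (34 UMIs, 1.34 CPM, 0.930 to 1.88), which also had the most Bcl11b+ cells (679). It had between 2 and 15 UMIs in each of the others.

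**Figure D5:**
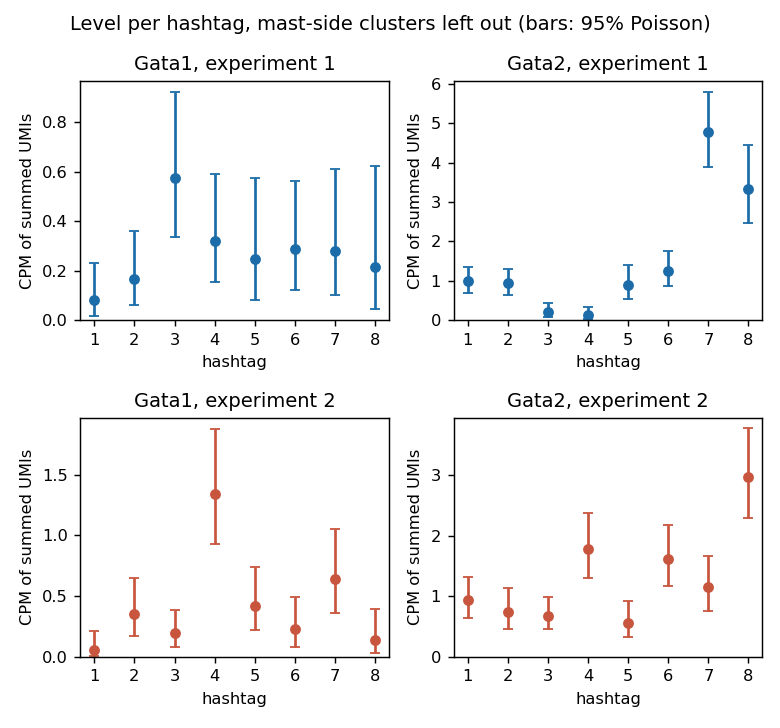
Gata1 and Gata2 per hashtag in CPM after mast-side clusters were left out; bars are exact 95% Poisson intervals. In experiment 1 Gata2 remains highest in hashtags 7 and 8 (4.76 and 3.34 CPM), and in experiment 2 it is highest in hashtag 8 (2.97 CPM).

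In single cells Gata1 and Gata2 were found together. A Gata2 UMI was present in 45.4% of Gata1+ cells (35.8 to 55.2%) and 3.26% of other cells in experiment 1, and in 48.3% (39.9 to 56.7%) and 2.91% in experiment 2. Outside the mast-side clusters the shares were 5.26% (3 of 57 cells, 1.10 to 14.6%) and 2.69% in experiment 1, and 10.0% (8 of 80 cells, 4.42 to 18.8%) and 2.35% in experiment 2. In the first case the intervals overlap (2.36 to 3.05% for the other cells), and in the second they do not (2.03 to 2.70%). Gata1+ cells outside these clusters had a Gata3 UMI more often than others in experiment 1, 91.2% (80.7 to 97.1%) against 66.0%. In experiment 2 the shares were 65.0% (53.5 to 75.3%) and 52.8% (51.7 to 53.9%), and the intervals overlap. The shares outside these clusters were not taken at equal depth.

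Zfpm1 was detected more often in cells with a Gata3 UMI. A Zfpm1 UMI was found in 58.1% of Gata3+ cells and 38.4% of other cells in experiment 1, and in 46.5% and 27.2% in experiment 2. Deeper cells score in both genes more often, and with each cell thinned to 5000 UMIs the shares were 19.7% (18.1 to 21.3%) and 15.8% (14.9 to 16.7%), and 14.7% (13.0 to 16.5%) and 9.37% (8.67 to 10.1%). Across cells, the correlation of their log levels was 0.196 (n = 8797) and 0.170 (n = 8335), which in sparse counts is no finding.

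Other genes of the same pathways were described from 5 lists. Of the 12 partners of GATA factors in DNA-bound complexes, such as Tal1, Lmo2 and Ldb1, 11 had enough UMIs for a hashtag ratio, and 3 reached 2-fold in experiment 1 and 4 in experiment 2 (median ratio 1.51 and 1.79, against 1.38 and 1.49 over all genes). These counts are to be read against the 20.5% and 28.1% of all genes that reached 2-fold, as are those of the other lists. Ldb1, the bridging protein of these complexes, had ratios of 1.27 and 1.21. Lmo2, its adaptor, had 3.12 and 11.2. Gfi1b, a repressor gene and GATA target, had 3.53 and 7.67. Runx1, the gene the study overexpressed or deleted, had 6.30 and 3.59; 3' counts do not separate vector from endogenous transcripts.

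Of the T-lineage genes around Gata3, 14 of 15 were at or over 2-fold in each experiment, against 20.5% and 28.1% of all genes, with median ratios of 4.54 and 9.28; Notch1 was the exception in both (1.91 and 1.58). Stem and progenitor genes around Gata2 reached 2-fold in 5 of 9 and 8 of 9 (median 2.45 and 5.45). Of the 10 type 2 genes, 4 could be tested, and 3 and 4 reached 2-fold. Of the 8 other GATA zinc finger and FOG family genes, 4 could be tested, and 0 reached 2-fold in either experiment (Trps1, Gatad1, Gatad2a and Gatad2b, ratios of 1.18 to 1.93), and Gata4 and Gata5 had 0 UMIs in both.

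By correlation of log levels across single cells, the genes most like Gata1 in both experiments were Sdsl, Gata2, Mfsd2b, Gm15915 and Klf1, an erythroid factor gene (lower of the 2 correlations 0.333 to 0.397). For Gata2 they were Ms4a2, which encodes the beta chain of the IgE receptor, Sdsl, Gata1, Cd55 and Hdc, the histamine-forming enzyme gene (0.37 to 0.53). For Gata3 they were Crip1, Gzma, Tcf7, Nrgn and Snap47 (0.362 to 0.449). For Zfpm1 they were Nrgn, Fgf3, Tcf7, Itga2b and Myb (0.203 to 0.274). These cells share a library and differ in depth. The Gata1 list rests on the mast-side cells, and so does the size of the correlations in the Gata2 list. Without those clusters Bcl11b and Cd3g came first for Gata1, the lower of the 2 correlations being 0.100 and 0.075. For Gata2, Cd200r3 and Ms4a2 then came first, at 0.147 and 0.136. In sparse counts such values are no finding. Over the 8 hashtag sums, the genes most like Gata3 were Jak1, Pafah1b3, Vezf1, Mzt1 and Rictor (0.968 to 0.984), and those most like Zfpm1 were Ppil2, Sipa1l1, Dpf2, Tgif1 and Cmas (0.926 to 0.945), out of 4964 genes compared. With 8 points of unknown condition, these are descriptions of the pools.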

How the data were processed

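Each experiment had 1 mRNA matrix of raw UMI counts per gene and cell and 1 table of hashtag counts per cell, as deposited by the authors. Cell Ranger 3.0.0 and the builds mm10 and GRCm38 are listed per the submitters' processing notes. How hashtags were counted and how barcodes were chosen is not given in the sources used here. All value columns were mapped to a sample.

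Cells with at least 500 genes and under 10% of UMIs from mt- genes were kept. A cell took a hashtag where its top tag had at least 50 counts and at least 3 times the second; 535 and 1879 kept cells had none. Cells with a close second tag were thereby left out as possible doublets, and no doublet caller was run on the rest. UMIs were summed per hashtag, cluster or gate and divided by the total (CPM). Intervals are exact Poisson for levels, exact conditional for ratios and Clopper-Pearson for shares. PCR duplicates are removed by UMIs, yet cells of 1 culture are not independent cultures, so the intervals cover counting error only. Counts from the 3' end do not separate isoforms.

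Cells were clustered with scanpy 1.11.5 (2000 variable genes without the 4 members, 30 principal components, 15 neighbours, Leiden resolution 0.5). A cluster was named where at least 3 listed markers of 1 type, more than of any other, were among its 50 leading genes. No other type with markers in the top 10 could match or exceed it there. Clusters of low depth without a marker of the type there were not named. Clusters with at least 2 mature T-cell markers there were not named either. All other clusters stayed unnamed. A gate counted a gene as present from 1 UMI. Ratios over hashtags were called at 2-fold with at least 10 UMIs in the lowest hashtag. Genes named by likeness were the 5 with the highest lower correlation of the 2 experiments. Promoter windows came from RefSeq tables of GRCm38.p6. Scaling alternatives used edgeR 4.0.16 (TMM) and DESeq2 1.42.0 size factors. Ratio intervals were tested on simulated Poisson counts, for 1 preset hashtag against the sum of the others. That does not test the intervals of highest-to-lowest ratios, whose hashtags were chosen by their values. The members and gene lists were chosen with earlier results of these data known. The split by Mcpt8 and Prss34, the levels outside mast-side clusters and the search for the core GATA were added after seeing the data.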

Additional observations from a re-analysis of the deposited data

Results flagged for a closer look

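In experiment 1, Gata1 in hashtag 8 (2.14 CPM) stood apart from the other 7 hashtags, of which the next was 1.22 CPM. In experiment 2, Gata2 in hashtag 4 (10.7 CPM) stood apart in the same way, with the next at 4.64 CPM. Both were found by the gap of 1 sample to its neighbour relative to the range, a criterion that chance meets in about 1 in 20 groups, and 8 groups of hashtags were examined. Mast-side cells made up 2.46% and 3.76% of the cells of these hashtags, and their part in the gap was not tested.

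Cells whose top hashtag had under 50 counts enter no comparison, yet they held UMIs of the genes. In experiment 1 these 39 cells had 6.95 CPM of Gata3 (5 UMIs, 2.26 to 16.2 CPM) and 12.5 CPM of Zfpm1 (9 UMIs, 5.72 to 23.7 CPM). A level of 3 counts there is 4.17 CPM, which lies within the Gata3 interval, and Gata1 and Gata2 had 0 UMIs. In experiment 2 the 638 such cells had 2.35 CPM of Gata2, 11.6 CPM of Gata3 and 12.3 CPM of Zfpm1, above the 0.235 CPM of 3 counts, and 2 UMIs of Gata1 (0.157 CPM), below it.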

How the results depend on the processing

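TMM scaling, DESeq2 size factors, every deposited barcode and a stricter tag rule each left 8 of 8 hashtag ratios within their intervals. The interval of Gata1 is wide: its ratio was 44.7 in experiment 2 under the stricter tag rule and 8.77 in experiment 1 under the stricter cell filter. Likewise a Leiden resolution of 1.0 left 8 of 8 class levels within theirs. Thinning to 5000 UMIs gave a Gata1 ratio of 12.2 in experiment 1 and a Gata2 ratio of 16.8 in experiment 2, and mast or basophil-like levels in experiment 1 of 216 CPM for Gata2, 1.80 CPM for Gata3 and 149.6 CPM for Zfpm1. The Gata2 ratio of experiment 1 was 29.97 under the stricter cell filter and 37.2 without mast or basophil-like cells. A mean over cells gave ratios of 15.1 for Gata2 and 4.70 for Gata3 in experiment 2, and the Gata2 ratio was 5.27 without mast-side clusters. With 3000 variable genes, or with the Mcpt1-led cluster, Gata2 was 195 CPM and Zfpm1 108 CPM in that class of experiment 2, which put Zfpm1 above the other cells rather than below them. The Gata3 gate ratio was 2.37 and 1.73 after thinning, and 2.59 in both experiments with gates of 2 UMIs. The cause of these shifts was not tested. Leaving out 1 hashtag at a time gave gate ratios of 2.63 to 3.17 and 2.40 to 3.64. It gave hashtag ratios of 2.79 to 4.90 and 13.4 to 21.6 for Gata1, 6.03 to 8.52 and 4.04 to 9.33 for Gata2, 2.83 to 3.18 and 3.43 to 4.10 for Gata3, and 1.91 to 2.12 and 2.66 to 2.76 for Zfpm1. The Zfpm1 ratio of experiment 1 was below 2 without hashtag 2. Gata1 has 3 to 77 UMIs per hashtag, so its order rests on few molecules. No paired analysis was possible because hashtags carry no replicate number or condition and the results come from no test.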
